A study of Rattus norvegicus with 50 samples.

Results

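The change in gene expression between postnatal days 35 and 21 was measured in the medial prefrontal cortex of Wistar rats, in animals carrying a knock-out of the serotonin transporter (SERT) and in wild-type (WT) animals. The comparison used the 20 libraries of these ages out of 50 in the series, chosen by the age and genotype in their labels: 5 of SERT knock-out (KO) rats at day 35, 5 of WT rats at day 35, 5 of KO rats at day 21 and 5 of WT rats at day 21. The other 30 libraries came from days 8, 14 and 70 and were used to follow genes outside the interval. No treatment is given for any group, and the labels state neither sex nor the nature of the knock-out allele. Nothing states that the libraries within a group were from separate rats. The p-values therefore rest on differences between libraries, some of which may be technical.

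In rats, day 21 lies at about the age of weaning and day 35 in adolescence. During this time the prefrontal cortex is still maturing: axons are being myelinated, inhibitory interneurons acquire their adult properties, and synapses are formed and pruned. The serotonin transporter takes released serotonin back up into serotonergic nerve endings. The cortex matures from sensory towards association areas, and the prefrontal cortex is among the last to do so. The deposited values carry Ensembl gene identifiers without symbols and no reference used here matched them. Genes are therefore given by identifier, no function is attached to any of them, and neither the serotonin transporter gene nor cell type markers, which would check the tissue, were analysed here. In whole tissue, more cells of a type and more RNA per cell cannot be told apart.

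RNA depleted of ribosomal RNA was sequenced, and 29516 identifiers had a value in each library, in FPKM (fragments scaled to transcript length and to the number of mapped reads). Each library was rescaled to a common median, by factors from 0.878 to 1.16 in the 20 libraries, and tests covered the 14779 genes that averaged 0.5 FPKM or more in the series. Relative depth, read from the steps of low values, was 0.801 to 1.33 times the median of the series at day 35 and 0.397 to 1.35 times at day 21. Total FPKM was 569671 to 2141919 in libraries of day 35 and 473265 to 2029709 in libraries of day 21. Between 58.0% and 82.2% of it fell on the top 50 identifiers. The first principal component held 28.7% of the variance. Its lowest values, -52.85 and -45.78, were those of KO libraries 17-1 (day 21) and 9-3 (day 35), which had the highest total FPKM. Its highest value, 38.43, was that of WT library 15-3 of day 21, which had the lowest total. On the third component, with 8.39% of the variance, every library of day 35 lay below every library of day 21. KO library 7-3 of day 35 and WT library 16-2 of day 21 stood apart from the other 18 on the second principal component, which held 17.1% of the variance. Without both of them 1150 genes were higher and 1203 lower at day 35.

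With genotype as a block, 804 genes were higher and 838 lower at day 35 than at day 21. These are 5.44% and 5.67% of the genes tested, 11.1% in all (limma, Benjamini-Hochberg adjusted p under 0.05), and 3707 genes had an unadjusted p under 0.05. The changes were small: the median log2 change was 0.29 in the genes that rose and -0.32 in those that fell, against 0.012 over all genes tested. Of the 1642 genes, 92.3% changed by less than 1.5-fold, 8 rose by more than 2-fold and 7 fell by more than 2-fold. Log2 changes refer to FPKM + 0.5, which understates the change of low genes. In 74 genes, 0.501% of those tested, all 10 libraries of day 35 lay above all 10 of day 21, and in 107 genes, 0.724%, all 10 lay below. These 181 genes, 1.22%, had all passed the test. After averaging of libraries with a common first title number, 329 genes were higher and 353 lower, and with array weights 1472 were higher and 1536 lower. Without rescaling 521 were higher and 637 lower.

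**Figure D1:**
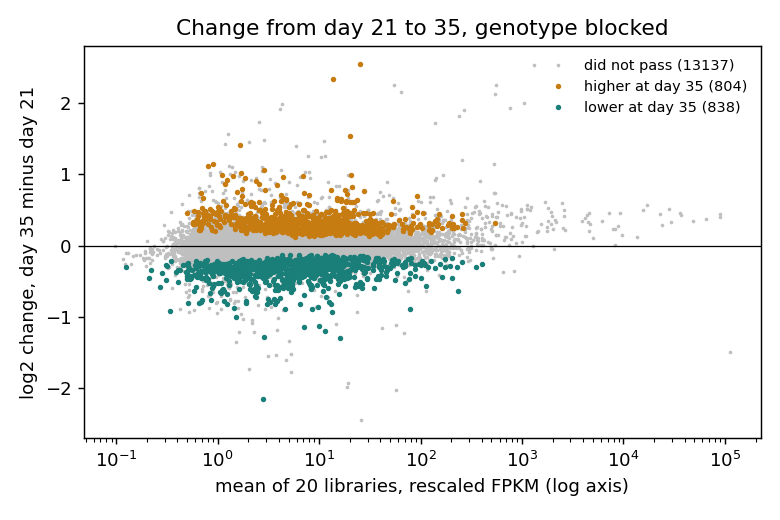
Log2 change from day 21 to 35 (day 35 minus day 21, genotype blocked) against the mean of the 20 libraries in rescaled FPKM on a log axis, 1 point per gene tested. The 804 genes that were higher and the 838 that were lower at day 35 lie mostly within 1 log2 unit of 0.

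Genes that rose were more abundant than those that fell. Their median level over the 20 libraries was 8.29 FPKM (quartiles 3.77 and 18.4), against 5.51 FPKM (1.96 and 12.7) in genes that fell and 5.63 FPKM (2.08 and 13.8) in genes that did not pass. The share that rose was 2.63% of the 1672 genes under 1 FPKM, 4.33% of the 5171 genes between 1 and 5 FPKM, 6.66% of the 5379 between 5 and 20 FPKM, 7.35% of the 2067 between 20 and 100 FPKM and 5.31% of the 490 at 100 FPKM and over. The share that fell was more even over the same classes, at 5.80%, 5.88%, 5.80%, 5.03% and 4.29%. Genes were kept by their mean over the whole series, while these levels are means of the 20 libraries. A gene below 0.5 FPKM in the 20 libraries was therefore tested only if it was higher at other ages. Among genes without overlap between the ages, the lowest mean was 0.126 FPKM for falls and 0.586 FPKM for rises. How far the filter shaped the shares in the lowest class, or the levels compared above, was not tested. The median standard error of the log2 change was 0.11 in the lowest class, 0.073 between 20 and 100 FPKM and 0.17 in the highest, so the precision was not the same at all levels.

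Among genes that passed and averaged at least 1 FPKM, the largest fall was that of ENSRNOG00000010172. Its 5 KO libraries of day 35 had 0.493, 0.687, 0.725, 0.746 and 0.844 FPKM, against 4.49, 4.86, 5.07, 5.48 and 6.66 FPKM in KO libraries of day 21. In WT rats the values were 0.630, 0.646, 0.669, 0.730 and 0.823 FPKM at day 35, against 3.78, 4.38, 4.44, 4.73 and 4.80 FPKM at day 21. The highest value of day 35 was below the lowest of day 21 in both genotypes, and the log2 change was -2.16 ± 0.073 (SE, limma adjusted p = 1.51e-13, 10 libraries per age). The fall had begun before and went on after: the gene averaged 9.55 ± 1.13 FPKM on day 8, then 8.35 ± 1.15 (day 14), 4.87 ± 0.774 (day 21), 0.699 ± 0.101 (day 35) and 0.198 ± 0.0968 (day 70), each with its SD over 10 libraries.

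ENSRNOG00000016977, which had the next largest fall, was a more abundant gene. It had 7.93, 8.58, 8.64, 9.71 and 10.4 FPKM in KO libraries of day 35, against 18.4, 21.0, 21.3, 22.0 and 23.8 FPKM in those of day 21. WT libraries had 7.62, 8.05, 9.14, 9.30 and 10.7 FPKM at day 35, against 21.6, 21.9, 25.0, 26.2 and 27.7 FPKM at day 21. The ages did not overlap, and the log2 change was -1.30 ± 0.071 (SE, limma adjusted p = 6.87e-10). Over the series its mean was 66.4 ± 12.4 FPKM on day 8, then 66.4 ± 12.0 (day 14), 22.9 ± 2.77 (day 21), 9.01 ± 1.04 (day 35) and 6.98 ± 0.810 (day 70), each with its SD over 10 libraries. The means of days 8 and 14 were equal to the digits given, and those of the later ages were lower.

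ENSRNOG00000028389 had the second largest fall in KO rats, among genes that passed there and averaged at least 1 FPKM. It had 1.26, 1.30, 1.43, 1.55 and 1.66 FPKM in KO libraries of day 35, against 3.72, 4.58, 4.68, 4.92 and 5.12 FPKM in those of day 21. In WT libraries it had 1.15, 1.46, 1.56, 1.63 and 1.68 FPKM at day 35, against 3.18, 3.87, 4.12, 4.4 and 4.44 FPKM at day 21. Again the ages were separate in both genotypes, with a log2 change of -1.39 ± 0.10 in KO rats (SE, limma adjusted p = 1.71e-07) and -1.17 ± 0.10 in WT rats (limma adjusted p = 2.36e-06). Its course differed from that of the other 2 falling genes, since the level was 4.29 ± 0.911 FPKM on day 8, then 6.30 ± 0.836 (day 14), 4.30 ± 0.589 (day 21), 1.47 ± 0.183 (day 35) and 1.18 ± 0.170 (day 70), each with its SD over 10 libraries. The means of days 8 and 21 lay within 1 SD of each other, and the highest mean was that of day 14.

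ENSRNOG00000015763 had the largest rise in WT rats, among genes that passed within WT rats and averaged at least 1 FPKM. KO libraries had 29.7, 30.3, 30.6, 31.0 and 36.1 FPKM at day 35, against 6.97, 8.39, 9.27, 13.0 and 15.8 FPKM at day 21. WT libraries had 23.7, 26.2, 27.0, 30.4 and 37.3 FPKM at day 35, against 8.58, 9.10, 9.67, 10.2 and 10.8 FPKM at day 21. All 10 libraries of day 35 lay above all 10 of day 21, although the KO libraries of day 21 were spread more widely than the WT ones. The log2 change was 1.57 ± 0.16 in KO rats (SE, limma adjusted p = 1.89e-05) and 1.52 ± 0.16 in WT rats (limma adjusted p = 2.71e-05). The gene was listed between 0 and 0.408 FPKM at day 8 and averaged 1.25 ± 0.563 FPKM on day 14, then 10.2 ± 2.54 (day 21), 30.2 ± 4.15 (day 35) and 28.4 ± 3.81 (day 70), each with its SD over 10 libraries.

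ENSRNOG00000025691, which had the second largest rise in WT rats by the same rule, was a gene of low level that began to rise later. It had 1.91, 2.47, 2.84, 2.90 and 3.54 FPKM in KO libraries of day 35, against 0.476, 0.520, 0.575, 0.690 and 0.729 FPKM in those of day 21. WT libraries had 2.19, 2.2, 2.43, 2.78 and 3.12 FPKM at day 35, against 0.505, 0.551, 0.774, 0.859 and 1.04 FPKM at day 21. The ages did not overlap, and the log2 change was 1.54 ± 0.14 in KO rats (SE, limma adjusted p = 2.95e-06) and 1.30 ± 0.14 in WT rats (limma adjusted p = 2.71e-05). Its means at days 8 and 14 were 0.185 ± 0.0753 and 0.191 ± 0.0849 FPKM, followed by 0.672 ± 0.183 (day 21), 2.64 ± 0.489 (day 35) and 3.79 ± 0.639 (day 70), each with its SD over 10 libraries.

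**Figure D2:**
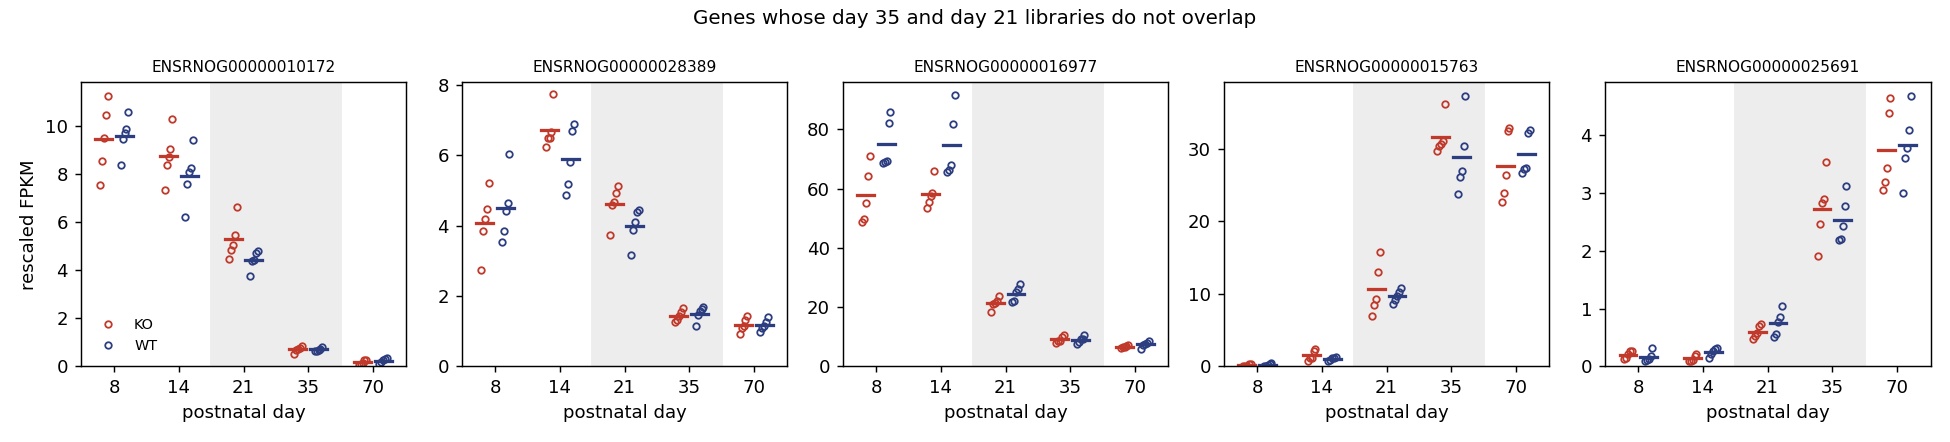
Rescaled FPKM of 5 genes in every library of the series by postnatal day, KO (left in each pair) and WT, with short lines at the mean of 5 libraries and the interval from day 21 to 35 shaded. In each gene the 10 libraries of day 35 do not overlap the 10 of day 21. ENSRNOG00000015763 is near its day 70 level at day 35, while ENSRNOG00000025691 and ENSRNOG00000010172 go on changing.

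Among genes that passed, the largest fitted rises belonged to genes with a wide spread between libraries. ENSRNOG00000034900 had 11.8, 22.3, 37.3, 69.4 and 113 FPKM in KO libraries of day 35, while those of day 21 had 1.08, 4.19, 15.5 and 19.3 FPKM with 1 library, 17-2, listed at 0. WT libraries had 1.91, 8.94, 14.8, 60.8 and 88.8 FPKM at day 35, against 0.868, 2.24, 2.72, 9.18 and 23.0 FPKM at day 21. The ages overlapped in both genotypes, and the log2 change of 2.56 ± 0.79 (SE, limma adjusted p = 0.0437) lost its call in 17 of 34 alternatives, 13 of them fits that left out 1 library, with an adjusted p between 0.00483 and 0.0878. At day 70 its values were again low, between 1.28 and 12.3 FPKM.

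ENSRNOG00000034783 was similarly spread. It had 1.32, 8.42, 28.7, 48.0 and 50.4 FPKM in KO libraries of day 35, while those of day 21 had 0.863, 0.968, 3.97 and 5.98 FPKM and library 17-2 was again listed at 0. WT libraries had 1.71, 3.69, 3.95, 37.9 and 63.9 FPKM at day 35, against 1.01, 2.17, 3.1, 4.16 and 4.67 FPKM at day 21. No library of another age was above 8.81 FPKM, a value that 5 of the 10 libraries of day 35 exceeded, and WT libraries 10-4 and 11-4 were the highest WT libraries for both genes. The log2 change was 2.35 ± 0.73 (SE, limma adjusted p = 0.0445), a call lost in 18 of 34 alternatives, 13 of them without 1 library, with an adjusted p between 0.00454 and 0.0804. Of all 8 genes with a rise of more than 2-fold, 3 had no overlap between the ages, and of the 7 with a fall of more than 2-fold, 5 had none. The 15 genes are 0.101% of those tested.

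Among genes that passed within KO rats and averaged at least 1 FPKM, both genes with the largest rise were also variable. ENSRNOG00000034462, an abundant row, had 292, 984, 1273, 1959 and 9884 FPKM in KO libraries of day 35, against 3.04, 5.97, 18.2, 44.9 and 284 FPKM in those of day 21. The ages did not overlap, by a narrow margin. WT libraries had 11.0, 12.8, 16.5, 1286 and 1376 FPKM at day 35, against 24.3, 191, 792, 934 and 1601 FPKM at day 21. The log2 change was 6.05 ± 1.63 in KO rats (SE, limma adjusted p = 0.0448) and -2.05 ± 1.63 in WT rats (limma adjusted p = 0.60). The difference between these changes, 8.10 ± 2.30, did not pass (limma adjusted p = 0.925). The KO call was lost in 19 of 32 alternatives, 12 of them without 1 library, and limma gave an adjusted p of 0.222 after averaging by first title number, 0.0517 with that number as a random effect, 0.0614 with quantile normalization and 0.0660 without rescaling. At days 8, 14 and 70 the same row also ran over a wide range, from 10.5 to 2096, from 2.09 to 1436 and from 1.69 to 1670 FPKM.

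ENSRNOG00000030234 had 1.10, 1.22, 2.36, 2.84 and 4.36 FPKM in KO libraries of day 35, against 0.115, 0.279, 0.297, 0.450 and 0.550 FPKM in those of day 21. WT libraries had 0.585, 0.612, 0.936, 0.944 and 1.77 FPKM at day 35, against 0.154, 0.403, 0.665, 0.828 and 1.68 FPKM at day 21. The ages were separate in KO rats and overlapped in WT rats, with a log2 change of 1.68 ± 0.32 in KO rats (SE, limma adjusted p = 0.00592) and 0.30 ± 0.32 in WT rats (limma adjusted p = 0.716). The difference of 1.38 ± 0.45 between the genotypes did not pass (limma adjusted p = 0.925). After averaging by first title number the KO change was 1.52 and no longer passed (limma adjusted p = 0.114).

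**Figure D3:**
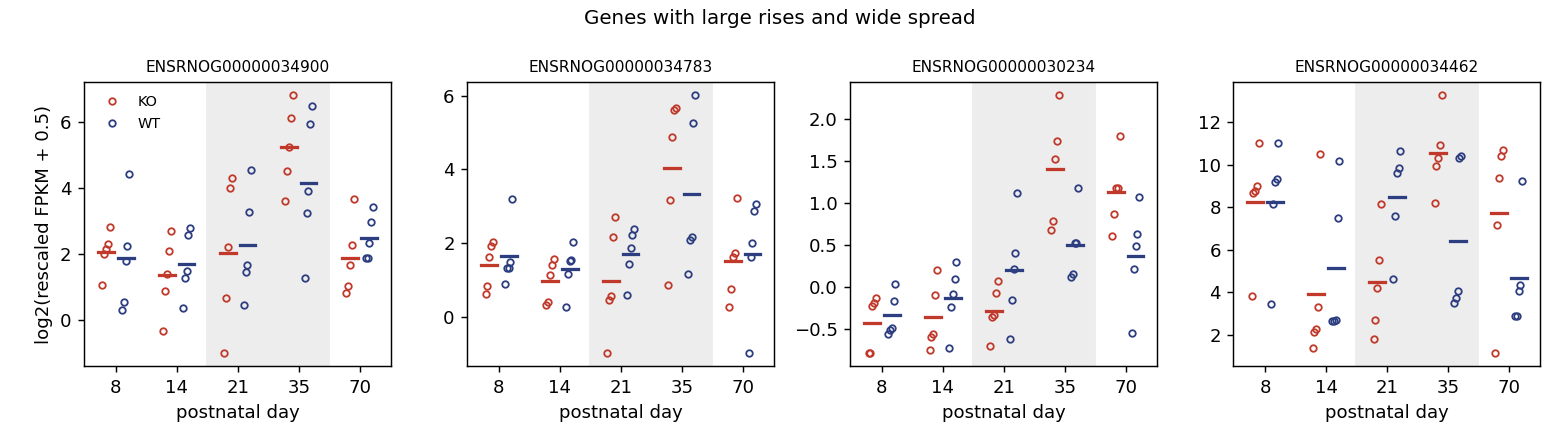
The 4 genes with large fitted rises and a wide spread, as log2 of rescaled FPKM + 0.5 in every library by postnatal day, KO (left in each pair) and WT, with short lines at the mean of 5 libraries. The highest values of ENSRNOG00000034900 and ENSRNOG00000034783 occur at day 35, at 113 and 63.9 FPKM, while ENSRNOG00000034462 runs over a wide range at each age.

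The change with age was then compared between genotypes. Within KO rats 271 genes were higher and 337 lower at day 35 (1.83% and 2.28% of those tested, 4.11% in all), and within WT rats 207 were higher and 227 lower (1.40% and 1.54%, 2.94% in all). The 608 KO genes became 295 to 403 when day 21 library 13-1, 13-4, 17-1 or 18-1 or day 35 library 9-5 was left out, and the 434 WT genes became 264 to 287 without day 21 library 15-3 or day 35 library 10-4 or 11-1. Without rescaling, 129 genes rose and 129 fell in KO rats, and 90 rose and 196 fell in WT rats. Averaging by first title number left 58 genes in KO rats (20 higher and 38 lower) and 57 in WT rats (27 and 30), and array weights gave 1013 and 1440. For no gene did the change with age differ between the genotypes by limma, 0% of those tested, with 521 genes at an unadjusted p under 0.05. The number was also 0 with array weights and 1 without WT library 10-2 of day 35. The median standard error of this difference was 0.17 log2 units.

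Genes chosen in one genotype moved the same way in the other. Each genotype was fitted alone for this, so that the genes were chosen in libraries that played no part in the second measurement, and 288 genes (1.95%) passed in KO and 174 (1.18%) in WT rats. Of the 120 genes that rose in KO rats (0.812% of those tested), 119 had a higher mean at day 35 in WT rats, and 37 also passed there. Of the 168 that fell (1.14%), 164 had a lower mean in WT rats and 43 passed. Among all genes tested, 52.6% had a higher mean at day 35 in WT rats and 0.582% passed in that direction, and 47.4% had a lower mean and 0.595% passed. In the other direction, 84 of the 86 genes that rose in WT rats had a higher mean in KO rats and 86 of the 88 that fell had a lower one, with 50.2% and 49.8% of all genes tested. No gene passed in opposite directions.

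The size of the change in the second genotype was measured in libraries that had no part in the choice of genes. Genes that rose in KO rats had a median log2 change of 0.37 in WT rats (quartiles 0.26 and 0.53), against 0.49 in the KO rats in which they were chosen. Genes that fell had -0.39 in WT rats (-0.59 and -0.29), against -0.54 in KO rats. Genes chosen in WT rats had medians of 0.46 and -0.45 in KO rats, against 0.59 and -0.53 in WT rats. In each of the 4 lists the median was closer to 0 in the genotype that had not chosen the genes. Choice by a test favours larger changes in the libraries used for it, so this is no measure of a difference between genotypes.

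The same genes ordered the single libraries by age. For each library, the mean log2 level of genes that fell in the other genotype was subtracted from that of genes that rose in it, and the mean of day 21 was set to 0. KO libraries of day 35 stood at 0.848, 0.898, 1.03, 1.09 and 1.13, against -0.088, -0.025, -0.024, 0.037 and 0.10 at day 21. WT libraries of day 35 stood at 0.722, 0.762, 0.803, 0.986 and 0.989, against -0.19, -0.16, -0.043, 0.096 and 0.30 at day 21. Every library of day 35 was above every library of day 21 of its genotype, including KO library 7-3, the lowest of its group, and WT library 16-2, the highest of its group. The outer ages, which had no part in the choice, extended this order: the KO means were -1.71 ± 0.099 at day 8, -1.14 ± 0.15 at day 14 and 1.43 ± 0.031 at day 70, and the WT means were -1.21 ± 0.050, -0.81 ± 0.19 and 1.14 ± 0.086 (SD, n = 5 each).

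**Figure D4:**
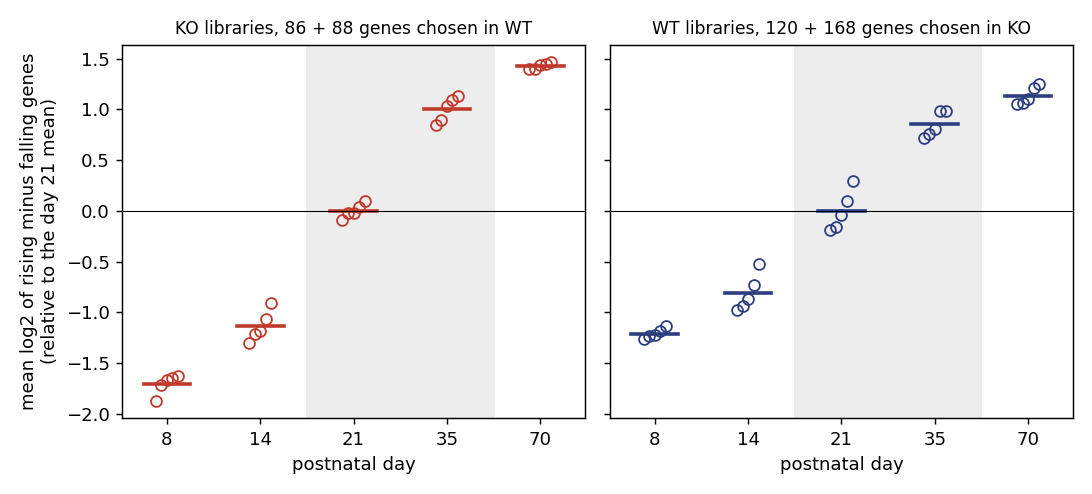
Mean log2 level of rising minus falling genes in every library by postnatal day, relative to the day 21 mean, for KO libraries (left, 86 + 88 genes chosen in WT rats) and WT libraries (right, 120 + 168 genes chosen in KO rats), with lines at group means. All libraries of day 35 lie above those of day 21 and the means rise from day 8 to day 70 in both panels.

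Genes of this interval were followed in libraries of other ages, none of which entered the comparison of days 35 and 21. Of the 804 genes that rose, 702 were also higher at day 70 than at day 14, 1 was lower and 101 did not pass. Of the 838 that fell, 712 were lower at day 70 than at day 14, 7 were higher and 119 did not pass. In the same comparison 50.7% of all genes tested passed, 25.8% being higher and 24.9% lower, so the shares of 87.3% and 85.0% were above the background. Days 14 and 70 lie on either side of the interval, so a change that lasted would appear in both comparisons. The median log2 difference between days 70 and 14 was 0.58 in genes that rose and -0.57 in genes that fell, against 0.011 over all genes tested.

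Earlier in life the same genes were more mixed. Between days 8 and 14, 365 of the 804 rising genes rose, 130 fell and 309 did not pass, while 44.4% of all genes tested passed, with 22.5% rising and 21.9% falling. Of the 838 falling genes 278 fell, 214 rose and 346 did not pass, which is 33.2% and 25.5%. Thus 45.4% of rising genes rose between days 8 and 14 and 33.2% of falling genes fell, each above its background share. Falling genes were split between both directions, and the 25.5% that rose were near the background of 22.5%. Genes that rose between days 8 and 14 and were lower at day 70 than at day 14 made up 171 of the 838, or 20.4%, against 3.86% of all genes tested. The reverse course, a fall between days 8 and 14 with a higher level at day 70 than at day 14, held for 85 of the 804 rising genes, or 10.6%, against 2.37%. Both shares rest on the 85.0% of falling and 87.3% of rising genes that passed the same way at day 70. They are therefore no measure of an excess by themselves. Of the 712 falling genes that were lower at day 70, 171 had risen between days 8 and 14. Among all genes tested that were lower at day 70, 570 of 3680 had done so. For the reverse course the counts were 85 of 702 rising genes and 350 of 3809 among all genes tested. Rising genes fell between days 8 and 14 in 16.2%, less often than all genes tested at 21.9%. Both comparisons also use the libraries of day 14.

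**Figure D5:**
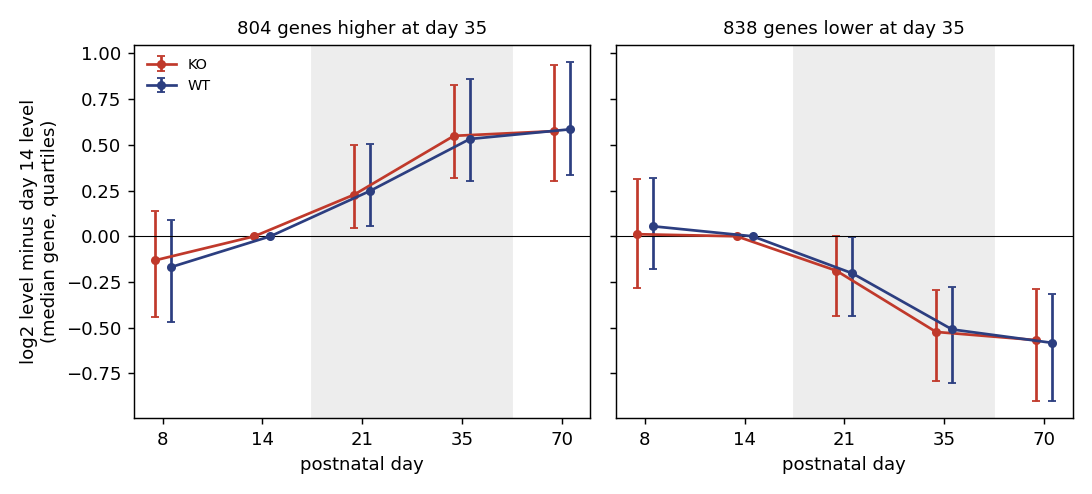
Median log2 level of the genes that were higher (left) and lower (right) at day 35 than at day 21, relative to day 14, by postnatal day in KO and WT rats, with bars at the quartiles over genes. The step from day 21 to 35 chose the genes, and days 8, 14 and 70 took no part in it. The medians at days 35 and 70 lie close together, at 0.55 and 0.57 in KO and 0.53 and 0.58 in WT rats for rising genes. For falling genes they are -0.52 and -0.57 in KO and -0.51 and -0.58 in WT rats. The libraries of day 35 helped to choose the genes, so this closeness is no measure of a plateau.

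In the genotype that had not chosen the genes, the median change from day 21 to 35 can be set beside the other intervals. For the 86 genes that rose in WT rats, the KO medians were 0.40 from day 8 to 14, 0.60 from day 14 to 21, 0.46 from day 21 to 35 and 0.20 from day 35 to 70. For the 88 that fell they were -0.089, -0.48, -0.45 and -0.21. For the 120 genes that rose in KO rats, the WT medians were 0.29, 0.47, 0.37 and 0.082, and for the 168 that fell they were -0.040, -0.30, -0.39 and -0.15. In all 4 lists the change went on in the same direction after day 35 by a smaller median amount. The genes were chosen for their change from day 21 to 35, which favours this interval in the other genotype too. The smaller change after day 35 is therefore no measure of a slowing. Neighbouring intervals share the libraries of an age and differ in length.

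By the number of genes that passed, the interval stood between its neighbours. The same fit called 5208 genes, or 35.2%, between days 14 and 21 and 319, or 2.16%, between days 35 and 70 (0.913% higher and 1.25% lower at day 70), against 1642, or 11.1%, between days 21 and 35. In a fit of all 50 libraries that tested the difference itself, the step from day 21 to 35 differed from the step from day 14 to 21 in 1491 genes (10.1%), being higher in 683 and lower in 808. It differed from the step from day 35 to 70 in 82 genes (0.555%), being higher in 41 and lower in 41.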

How the data were processed

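RNA was depleted of ribosomal RNA and sequenced as 50 bp single-end reads, per the labels' protocols, which name gsnap and the rn4 assembly. Cufflinks, bedtools, BWA 0.6.1 and rn4 are named in the submitters' processing notes. Which aligner was used, the annotation and any use of strand are not given in the sources used here, so overlapping genes may share reads. The authors deposited FPKM values in 1 table per genotype. An effect of a table on a gene cannot be told apart from genotype, but both ages occur in each table.

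All 50 columns were matched to samples by genotype, age and title numbers, and 0 were left unmatched. Each library was rescaled by its median ratio to a geometric mean over the 50 libraries, and genes averaging 0.5 FPKM or more were kept. Linear models of log2(FPKM + 0.5) used limma 3.58.1 under R 4.3.3, with a trended and robust prior variance. The main fit held the 20 libraries with age and genotype as terms. A fit of the 4 group means gave the changes within genotypes and their difference. Absolute depth is unknown. Relative depth used 4242 rows, in which a median of 97.9% of ratios between libraries matched a ratio of whole numbers up to 12, with a tolerance of 0.02 on the log2 scale. Since 12 of the 4897 rows whose median reached 10 FPKM were listed at 0 in some library, a listed 0 may be a failed estimate. The tests were tried on simulated data.

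The members, gene lists and rules were chosen with earlier results of these data known. Named genes were, in both genotypes together, in KO and in WT, the 2 that rose most and the 2 that fell most among those that passed and averaged 1 FPKM or more. Lists of genes by symbol were not analysed, because 0 of 29516 identifiers matched the reference table. The tests of neighbouring intervals and the fits without KO library 7-3 and WT library 16-2 were added after seeing the data. Figures were drawn with matplotlib 3.10.9 under Python 3.11.15.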

Additional observations from a re-analysis of the deposited data

Results flagged for a closer look

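In 3 of 62 groups of 5 libraries, 1 library lay far from the other 4 relative to the range of its group. Chance alone gives about 1 group in 20. ENSRNOG00000034462 had 9884 FPKM in KO library 9-3 of day 35, where the next highest library of the group had 1959 FPKM. The same gene had 284.4 FPKM in KO library 18-1 of day 21, where the next highest had 44.9 FPKM. ENSRNOG00000015763 had 36.1 FPKM in KO library 9-5 of day 35, where the next highest had 31.0 FPKM.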

How the results depend on the processing

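The 1642 genes that changed with genotype blocked became 682 when libraries sharing a first title number were averaged and 3008 with array weights, and lay between 1374 and 2127 when 1 library was left out. Under the same settings the 608 genes of KO rats became 58 and 1013, with 295 to 800 when 1 library was left out, and the 434 of WT rats became 57 and 1440, with 264 to 532. The values as deposited gave 258 in KO and 286 in WT rats, and 1158 with genotype blocked. Averaging leaves fewer values per group, and the cause of the rise with array weights was not tested. The number of genes with a difference between genotypes was 0 to 1 when 1 library was left out. Other pseudocounts, filters, quantile normalization, a fit of all 50 libraries and a random effect of the first title number kept the counts within 1.5 times. Total FPKM as a covariate, added after seeing the data and run for both genotypes together only, gave 1703 genes. With quantile normalization 87.9% of falling genes, in place of 85.0%, were lower at day 70 than at day 14. The falls of ENSRNOG00000010172 (both genotypes together, KO and WT), ENSRNOG00000016977 (both together and WT) and ENSRNOG00000028389 (KO), and the rises of ENSRNOG00000015763 and ENSRNOG00000025691 (WT), kept their calls under the alternatives run for these comparisons. No paired analysis was possible because no first title number occurs in more than 1 group. Depth is known only as a ratio, so no interval from counts can be given.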

Other observations

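Summed over the 804 genes that were higher at day 35, the rescaled level was 16880 ± 762 FPKM at day 35 and 13500.0 ± 547 FPKM at day 21 (SD, n = 10 each). Summed over the 838 that were lower, it was 10690 ± 202 FPKM at day 35 and 13450 ± 212 FPKM at day 21. The choice of genes fixes the direction of both sums.

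The median SD of a gene between the 5 libraries of a group was 0.20 log2 units in KO rats of day 35 and 0.14 in KO rats of day 21, and 0.17 in WT rats of day 35 and 0.18 in WT rats of day 21. Between libraries that share a first title number the fitted correlation was 0.0057, a single value for all genes tested. How much of the spread of a gene goes with that number was not tested.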
